A study of Homo sapiens with 6 samples.

Results

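The MYC gene, its noncoding neighbour PVT1 and the gene desert around them were examined in a window of 4 Mb on chromosome 8, from 126.5 to 130.5 Mb (GRCh38). All peaks of 4 deposited lists that touched the window were taken. The window held 53 of 15304 and 39 of 12797 peaks of the libraries from conditioned medium (CM), and 2 of 4657 and 10 of 7652 peaks of the libraries from DMEM. Merged across the libraries, wherever peaks shared at least 1 bp, these peaks formed 57 of the 16235 intervals of the genome. The RefSeq annotation of GRCh38.p14 places 56 genes in the window.

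The data come from MYC chromatin immunoprecipitation sequencing in MIAPaCa2, a human cell line of pancreatic ductal adenocarcinoma. All cells were starved of serum for 48 hours. They then received, for 3 hours, either serum-free medium conditioned by primary cancer-associated fibroblasts (CM, 2 immunoprecipitated libraries) or fresh serum-free DMEM (2 immunoprecipitated libraries). The inputs, 1 per condition, were not analysed here. No label tells whether libraries of 1 condition stem from different cultures, and their spread may be technical. Read depth is unknown, so a peak count is a count at the authors' threshold, and a lower depth or yield gives fewer peaks.

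MYC encodes a transcription factor that binds DNA as a dimer with MAX and is switched on by growth factors. The desert around it is known for enhancers that act on MYC over long distances in several tissues, and for variants linked to cancer risk. PVT1 makes a long noncoding RNA and hosts several microRNAs. In human breast cancer cells the PVT1 promoter has been described as competing with the MYC promoter for enhancers inside PVT1. MYC and PVT1 are transcribed in the same direction, toward higher coordinates, with their starts 59.1 kb apart.

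Each peak carries a whole-number score given by the authors, of at least 13 in CM library 1, CM library 2 and DMEM library 1 and at least 14 in DMEM library 2. Scores depend on depth. They are therefore given here as a percentile within the own list, where 50 is the middle of that list and 100 its top. The lists differ in length, so percentiles of CM and DMEM set side by side show no change in binding.

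The PVT1 start carried one of the highest-scoring peaks of every list, while the MYC start carried a middling peak in CM and a low peak in 1 DMEM library. Upstream of MYC and inside PVT1, many peaks were called in CM and few in DMEM. Across the window the mean number of peaks was 46 ± 9.90 in CM and 6 ± 5.66 in DMEM (SD, n = 2 libraries each). This is a 10.2-fold difference by geometric means (exact two-sided permutation test, p = 0.333, the smallest that 2 against 2 libraries allow). It was 4.55-fold without DMEM library 1, 22.7-fold without DMEM library 2, and 2.16-fold in lists of equal length.

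**Figure D1:**
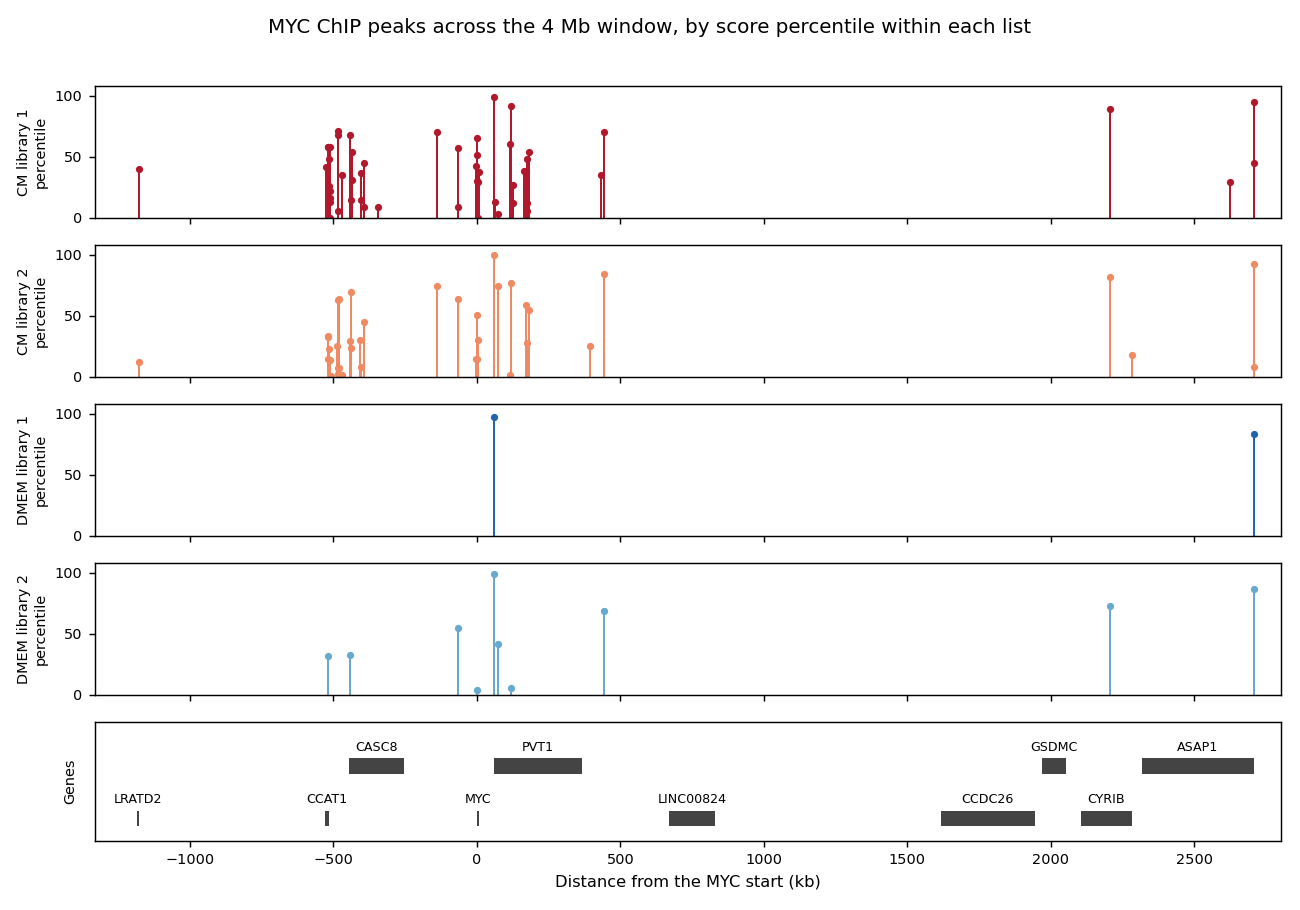
Peaks in the window, by library. Each line is 1 peak, drawn at its distance from the MYC start (horizontal axis, kb) and as high as its score percentile within the own list (vertical axis). The 53 and 39 peaks of the CM libraries crowd upstream of MYC and over the first part of PVT1. The 2 and 10 peaks of the DMEM libraries include the high ones at the PVT1 start and at the high-coordinate end of ASAP1. Bars at the bottom show selected genes.

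At the MYC start (gene at 127735434 to 127742951), the highest-scoring peak lay at 127734796 to 127735984 in CM library 1, at percentile 65.0, rank 5328 of 15304. In CM library 2 it lay at 127734865 to 127736179, at percentile 50.1, rank 6348 of 12797. DMEM library 2 had a peak of 405 bp at 127735735 to 127736139, at percentile 3.81, rank 7306 of 7652. DMEM library 1 had no peak within 1000 bp of either end of MYC. The CM peaks were 1189 and 1315 bp wide and covered the annotated start, whereas the DMEM peak lay inside the gene, 0.301 to 0.705 kb after the start. The percentile averaged 57.6 ± 10.5 in CM (SD, n = 2), above the single DMEM value. No test was made, since 1 DMEM library had no value.

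Further peaks surrounded the MYC start in CM. In CM library 1 a second peak at 127736113 to 127736877 stood at percentile 51.6. Upstream, both CM libraries had a peak at about 2.24 kb before the MYC start, at percentiles 42.1 and 14.1, and another at about 1.34 kb before it, at percentiles 30.1 and 14.1. Both lay within 1000 bp of the high-coordinate end of CASC11, a noncoding gene that runs away from MYC on the other strand, and so did the peak at the MYC start itself. Inside MYC, an interval at 127738098 to 127738884 had a peak in both CM libraries, at percentiles 29.4 and 30.1. The peak of DMEM library 2 described above reached into the second peak of CM library 1, and no other DMEM peak lay at these places.

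The far end of MYC carried a single peak of 286 bp, at 127742207 to 127742492. It was called in CM library 1 alone, at percentile 37.5. CM library 1 also had a peak inside MYC at 127737389 to 127737647 with a score of 13, the lowest of its list. Between MYC and PVT1, from 1000 bp beyond the MYC end to 1000 bp before the PVT1 start, no library had a separate peak. The low edge of the peak at the PVT1 start reached into this stretch in both CM libraries.

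Among protein-coding genes, the calls at MYC were common. End peaks in the CM libraries and DMEM library 2, with none in DMEM library 1, were found for 11.4% of 20037 protein-coding genes. The 5 genes with these calls whose percentiles were nearest to those of MYC, over the 3 libraries with a peak, were SLC47A1, FBXL8, TRADD, ANAPC15 and CDC42EP4. Their mean absolute differences from MYC ran from 1.23 to 3.03 percentile points. SLC47A1, the nearest, stood at 64.7 and 50.9 in the CM libraries and at 1.18 in DMEM library 2. FBXL8 and TRADD are neighbours with the same values, 68.5 and 50.9 in the CM libraries and 2.95 in DMEM library 2.

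**Figure D2:**
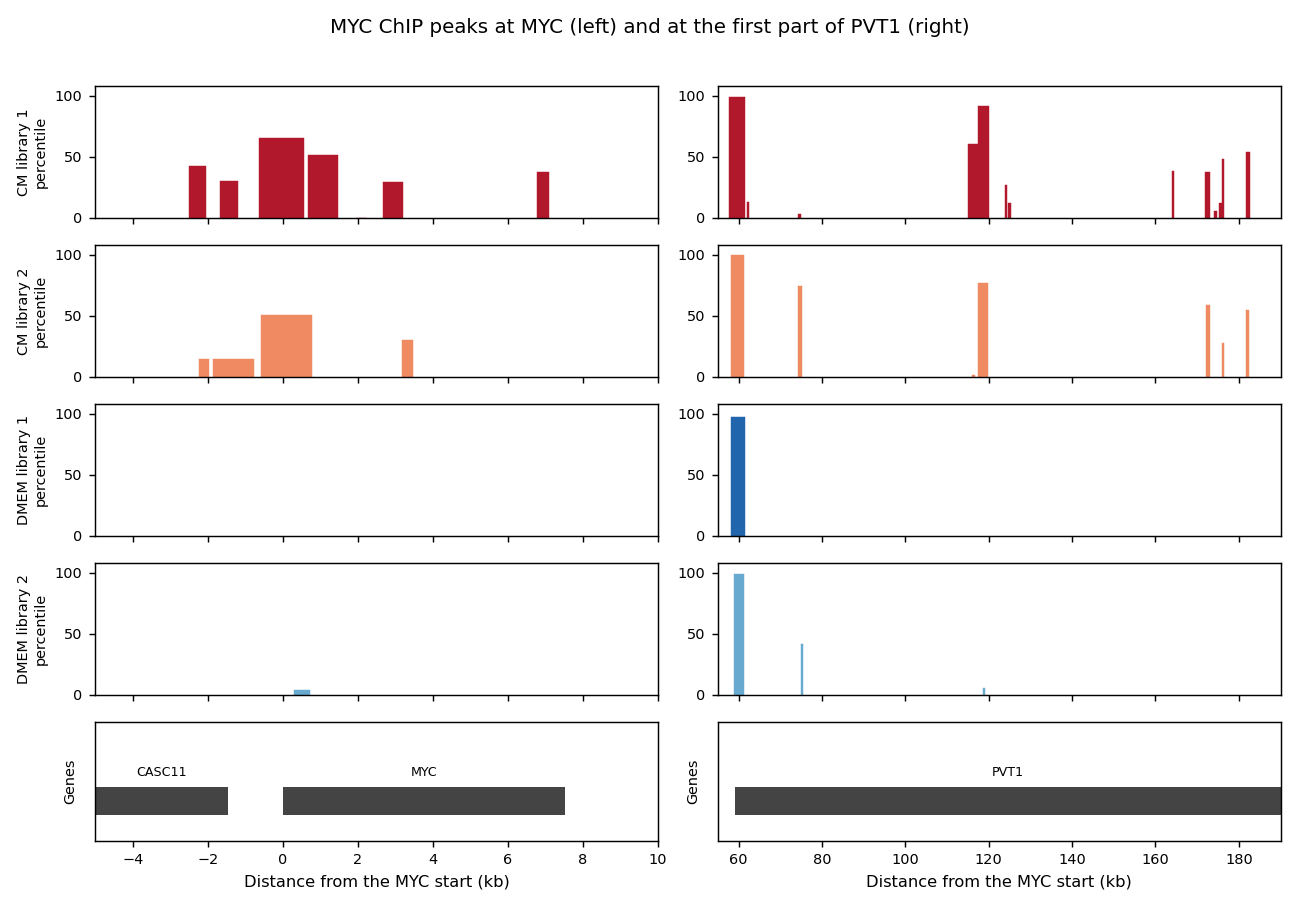
Peaks at MYC (left) and over the first part of PVT1 (right), drawn to their width along the distance from the MYC start (kb) and to their score percentile within the own list. The peak over the PVT1 start reaches percentiles of 97.0 to 99.3 in all 4 libraries. The peak over the MYC start reaches 65.0 and 50.1 in CM, and the peak just after that start in DMEM library 2 reaches 3.81. A peak of CM library 1 inside MYC, at percentile 0.0588, is too low to see.

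The PVT1 start (gene at 127794524 to 128101256) carried a broad peak in all 4 libraries. It spanned 127793125 to 127796778 in CM library 1, with a score of 850 and rank 161 of 15304, and 127793507 to 127796520 in CM library 2, with a score of 840 and rank 88 of 12797. In DMEM library 1 it spanned 127793565 to 127796718, with a score of 252 and rank 140 of 4657, and in DMEM library 2 it spanned 127794207 to 127796449, with a score of 557 and rank 86 of 7652. The percentiles were 99.0 and 99.3 in CM and 97.0 and 98.9 in DMEM, a mean of 99.1 ± 0.258 in CM and 97.9 ± 1.33 in DMEM (SD, n = 2 each). Both CM values were above both DMEM values, by less than the SD between the DMEM libraries for the nearest pair. In lists shortened to the same number of peaks they were 96.6 and 98.1 in CM and 97.0 and 98.2 in DMEM, and this order was lost. The peak was 3654 and 3014 bp wide in CM and 3154 and 2243 bp wide in DMEM. It covers MIR1204, a microRNA gene inside PVT1 at 127795962 to 127796028, so that both annotations share it.

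The order of the 2 starts was the same in each library that had both. The PVT1 peak stood above the MYC peak by 33.9 and 49.2 percentile points in the CM libraries and by 95.1 points in DMEM library 2. In DMEM library 1 only the PVT1 start had a peak.

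Inside PVT1, peaks lay in the first part of the gene only. Counting the start, PVT1 held 13 and 7 peaks in the CM libraries and 1 and 3 in the DMEM libraries. The last of them ended 123 kb after the PVT1 start, and no library had a peak in the 183 kb from there to the end of this 307 kb gene. The peaks formed 14 intervals, of which 5 were present in both CM libraries and in no DMEM library (CM-only) and 1, at the start, in all 4. These are 35.7% and 7.14% of the 14, against 21.8% and 20.6% of all merged intervals. Another 6 (42.9%) were called in a single CM library and in no DMEM library, against 36.0% of all. None of the 14 lay at a protein-coding gene end. Away from such ends, 21.2% of intervals of the genome were CM-only, 10.7% in all 4 libraries and 50.6% in a single CM library.

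By mean CM percentile, the second highest interval of PVT1 lay 59.5 kb after its start, at 127852871 to 127855258. Its peaks stood at percentiles 91.6 and 76.6 in the CM libraries, with widths of 2339 and 2264 bp, and at 5.99 in DMEM library 2, with a width of 280 bp, the lowest of the 3 PVT1 peaks of that library. DMEM library 1 had none. The adjoining interval at 127850465 to 127852613 was CM-only, at percentiles 60.1 and 1.32, so the CM libraries differed there by 58.7 percentile points. A further 3 CM-only intervals lay together, 113 to 123 kb after the PVT1 start. Their percentiles were 37.5 and 58.7, 48.3 and 27.4, and 53.9 and 54.4 in CM libraries 1 and 2.

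About 15.5 kb after the PVT1 start, the libraries called neighbouring peaks that did not overlap. CM library 2 had a peak at 127809683 to 127810355, at percentile 74.2, which overlapped one of CM library 1 at percentile 3.16. DMEM library 2 had a peak at 127810411 to 127810629, at percentile 41.6, which began 55 bp beyond that interval. This interval of DMEM library 2 was the single one of the window without a CM peak, and it joins the CM interval when peaks within 500 bp are merged.

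Upstream of MYC, the CM libraries had 29 and 23 peaks and the DMEM libraries 0 and 3. Most lay in a stretch of 200 kb around CCAT1, CASC21 and CASC8, noncoding genes of the desert. This stretch was chosen after the values were seen, so its counts and shares, here and below, cannot test for an excess. It held 23 and 19 peaks in CM, which covered 15.5 and 7.72 kb, and 0 and 2 peaks in DMEM, which covered 0 and 0.704 kb. CCAT1, first described in colorectal cancer, is transcribed from a large enhancer region there.

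The peaks of this stretch were moderate. Their median percentile was 35.1 and 23.9 in the CM libraries, and the highest stood at 71.2 and 69.5. Of 25 intervals, 10 had a peak in both CM libraries, 8 of them CM-only (32%, against 21.2% of all intervals away from protein-coding gene ends). The other 15 (60%) had a peak in a single CM library, against 50.6%. The interval at 127293466 to 127295763, where CASC21 and CASC8 overlap, stood at percentiles 67.4 and 69.5 in CM and at 32.9 in DMEM library 2. An interval over CASC21, at 127251142 to 127254532, held 2 peaks of CM library 1 and 4 of CM library 2, the highest at percentiles 67.7 and 63.3, and none of DMEM. Over CCAT1, an interval at 127215027 to 127216695 stood at 57.9 and 32.2 in CM and at 31.7 in DMEM library 2. DMEM library 1 had no peak anywhere in the stretch.

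**Figure D3:**
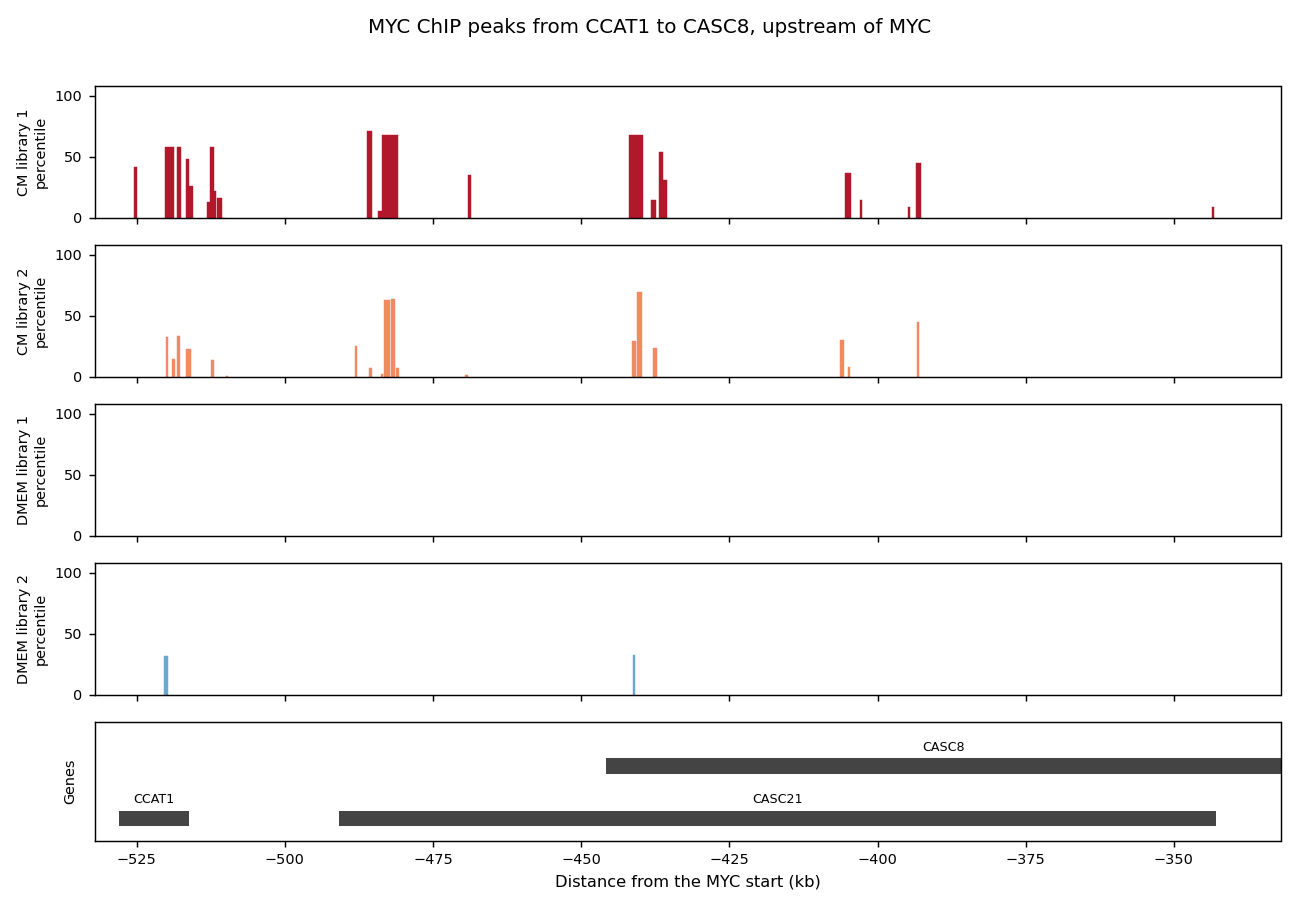
Peaks from CCAT1 to CASC8, drawn to their width along the distance from the MYC start (kb, negative is upstream) and to their score percentile within the own list. Of the 25 intervals 10 have peaks in both CM libraries and 15 in one of them. The highest peak, at percentile 71.2 in CM library 1, stands at 6.99 in CM library 2. The 2 peaks of DMEM library 2 lie at 31.7 and 32.9, and DMEM library 1 has none.

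Nearer to MYC, single intervals stood apart. One at 127596041 to 127596907, 139 kb upstream of the MYC start and outside any annotated gene, was CM-only at percentiles 70.2 and 74.4. Another, 66.6 kb upstream at the high-coordinate end of the noncoding gene LOC105375754, stood at 57.2 and 63.7 in CM and at 55.1 in DMEM library 2. Far upstream, LRATD2 held a CM-only interval at 126556470 to 126556993, at percentiles 39.8 and 11.8.

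Downstream of PVT1 there were 6 and 6 peaks in CM and 1 and 3 in DMEM. No library had a peak in a gap of 1.76 Mb, from 128177653 to 129939160, which holds LINC00824, CCDC26 and the gasdermin gene GSDMC. A second gap, of 653 kb, reached from LRATD2 to CCAT1. The interval before the long gap, at 128175934 to 128177652 inside the noncoding gene LOC124902020, stood at 70.2 and 84.3 in CM and at 69.0 in DMEM library 2. Inside CYRIB, which encodes a RAC1-binding protein, an interval at 129939161 to 129940756 stood at 88.6 and 81.6 in CM and at 73.1 in DMEM library 2.

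The other interval of the window with a peak in all 4 libraries lay at the high-coordinate end of ASAP1, which encodes a GTPase-activating protein for ARF. It spanned 130442740 to 130445066, at percentiles 94.5 and 92.3 in CM and 83.3 and 86.4 in DMEM. The mean was 93.4 ± 1.54 in CM and 84.8 ± 2.17 in DMEM (SD, n = 2 each), and the CM and DMEM values did not overlap. In the shortened lists it stood at 82.0 and 79.0 in CM, between the DMEM values of 83.3 and 77.6. How often other intervals present in all 4 libraries show such an order was not tested.

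**Figure D4:**
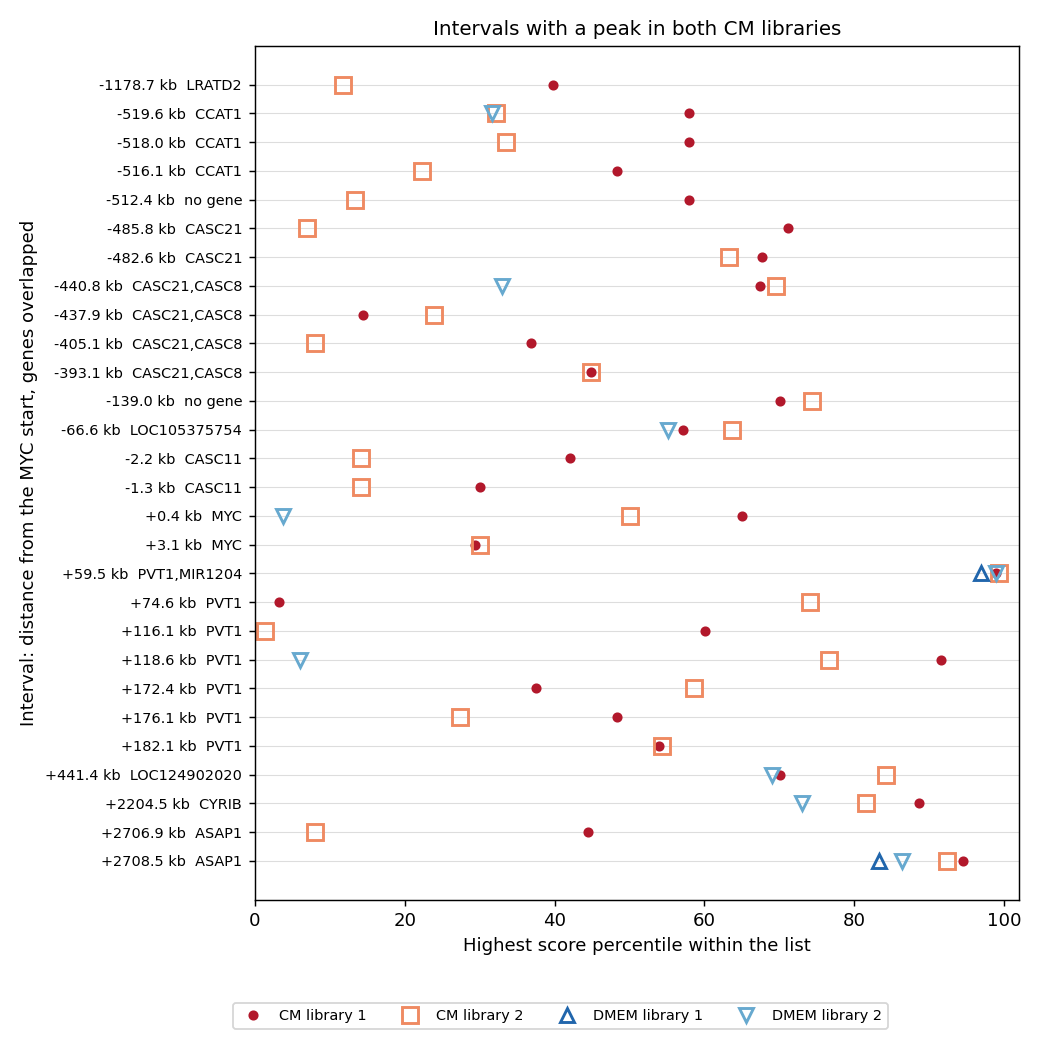
Score percentile within the own list (horizontal axis) of the 28 intervals with a peak in both CM libraries, ordered by distance from the MYC start. Each mark is the highest peak of 1 library in that interval, and a missing mark means no peak. Marks of DMEM library 1 appear at the PVT1 start and at ASAP1 only, and those of DMEM library 2 appear in 9 intervals.

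By gene, 14 of the 56 had a peak at an end or in the body in any library. They were 4 of 6 protein-coding genes (LRATD2, MYC, CYRIB and ASAP1), 9 of 29 long noncoding genes and 1 of 7 microRNA genes, MIR1204. The protein-coding genes without a peak were POU5F1B, a copy of the pluripotency factor gene POU5F1, and GSDMC. A peak at an end in both libraries was found for 7 genes in CM, namely CCAT1, LOC105375754, CASC11, MYC, PVT1, MIR1204 and ASAP1. It was found for 3 genes in DMEM, namely PVT1, MIR1204 and ASAP1. Of the 6 protein-coding genes, 2 had such a call in CM and 1 in DMEM, where the shares over all protein-coding genes were 39.1% in CM and 15.9% in DMEM. For noncoding genes and for gene bodies no share over the genome was taken, so an excess or lack was not tested.

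Most intervals of the window carried no DMEM peak. Of the 57, 19 (33.3%) were CM-only, against 21.8% of all merged intervals. A further 28 (49.1%) had a peak in a single CM library and none in DMEM, against 36.0% of all intervals. Away from protein-coding gene ends the share was 51.0% in the window and 50.6% in all. All 4 libraries shared 2 (3.51%), against 20.6% of all intervals, and both CM libraries with 1 DMEM library shared 7 (12.3%), against 18.4%. No interval was present in both DMEM libraries and in no CM library. Any DMEM peak was found in 10 intervals (17.5%), against 42.2% of all intervals.

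Away from the ends of protein-coding genes, where most of the window lies, 17 of 51 intervals (33.3%) were CM-only, against 21.2% of such intervals in the genome. Among the same 51, 8 (15.7%) had a DMEM peak, against 28.2% in the genome. All 4 libraries shared 1.96% of the 51, against 10.7% in the genome. The CM-only intervals of the window had a median percentile of 35.6 (mean of the CM libraries), and the 9 intervals in both CM libraries with a DMEM peak one of 77.2. Over the genome these medians were 38.8 and 75.2.

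**Figure D5:**
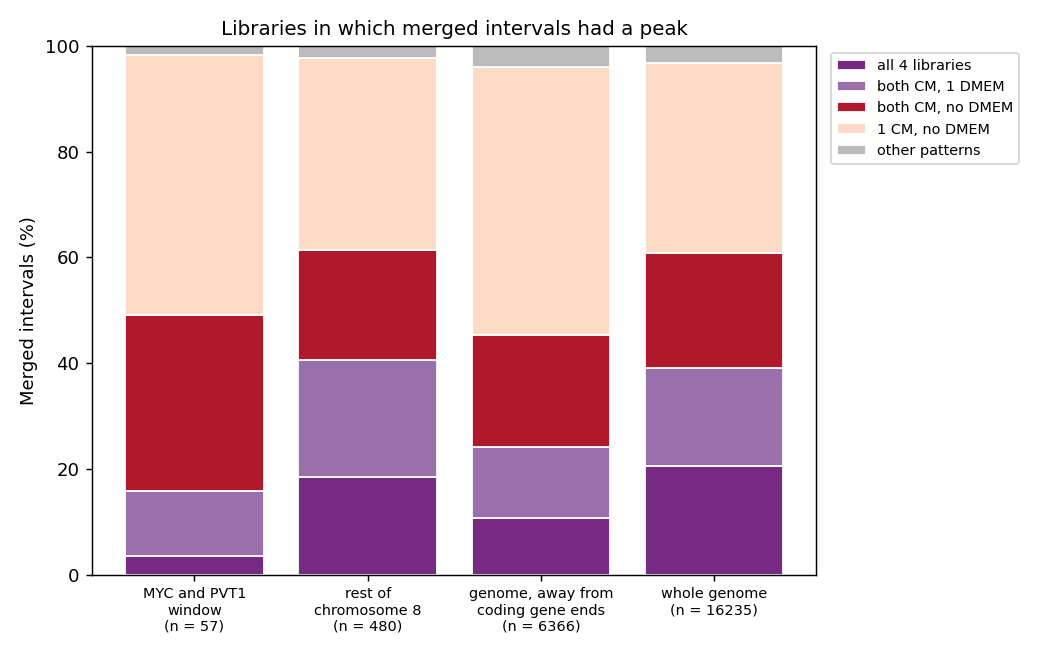
Share of merged intervals (vertical axis, %) by the libraries in which they had a peak, for the 57 intervals of the window, the 480 of the rest of chromosome 8, the 6366 of the genome away from protein-coding gene ends and all 16235. In the window 3.51% were present in all 4 libraries and 33.3% were CM-only, against 20.6% and 21.8% of all intervals.

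The window held 0.346% and 0.305% of the peaks of the CM lists and 0.0429% and 0.131% of those of the DMEM lists. In the window the CM lists held 10.2 times as many peaks as the DMEM lists, against 2.34 times in the whole genome outside it and 2.46 times on the rest of chromosome 8. The share of a list that lay in the window was 4.34 times as high in CM as in DMEM (exact two-sided permutation test, p = 0.333, the smallest possible here). It was 2.49 times without DMEM library 1 and 7.56 times without DMEM library 2. With each list limited to its 4657 highest-scoring peaks, the window held 7 and 8 CM peaks and 2 and 6 DMEM peaks.

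In these shortened lists 2 of 11 intervals of the window were CM-only (18.2%), against 6.10% of all intervals of the genome, protein-coding gene ends included. They were the interval 139 kb upstream of MYC and that 59.5 kb after the PVT1 start. The latter had a DMEM library 2 peak in the full list. Its score of 28 fell below the lowest score kept for that library, 61. The MYC start had no peak in any of the shortened lists, while the PVT1 start had one in all 4.

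Within 1 Mb of its low-coordinate end, MYC had 22 intervals with a peak in both CM libraries and away from protein-coding gene ends. The PVT1 start is one of them. This count was chosen after the values were seen, so its rank among genes cannot test for an excess. Over 20037 protein-coding genes the median was 2 and the highest count 32, and 99.5% of genes had fewer than MYC. In lists of equal length MYC had 4 such intervals over a median of 1, and 93.3% of genes had fewer. Neighbouring genes share intervals, so these counts are not independent. The only protein-coding genes within 1 Mb of the MYC start are POU5F1B and MYC, so few intervals there were left out. How far the rank depends on this was not tested. For both DMEM libraries the count at MYC was 1, over a median of 0, and 52.2% of genes had fewer. With DMEM library 2 alone the count at MYC was 7, over a median of 1, and 92.7% of genes had fewer. With DMEM library 1 alone it was 1, over a median of 1, and 48.4% of genes had fewer.

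In the window, 9 of the 10 peaks of DMEM library 2 and both of DMEM library 1 overlapped a peak of each CM library. Between the CM libraries, 31 of the 53 peaks of library 1 and 33 of the 39 of library 2 overlapped. Over the 28 intervals in both, the percentiles of the CM libraries differed by a median of 15.5 points and by up to 71.0 points. Single percentiles of weak intervals are thus uncertain to that extent. Window peaks were narrower than those of the whole list in CM, with medians of 467 and 426 bp against 691 and 593 bp.

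Toward the low border of the window, the first peaks inside stood at percentiles 39.8 and 11.8 in the CM libraries, against 10.4 and 23.9 for the nearest peaks outside, at 125432110 to 125432533 and at 125430650 to 125431447. Toward the high border, the last peaks inside, those at ASAP1, stood at 94.5 and 92.3, against 17.9 and 25.3 for the nearest outside. In the DMEM libraries the first peaks inside lay far from the low border, at the PVT1 start in library 1 (97.0) and over CCAT1 in library 2 (31.7), against 35.4 and 26.2 for the nearest outside. The last inside, at ASAP1, stood at 83.3 and 86.4, against 5.26 and 58.2 for the nearest outside.

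Most genes that encode known regulators of MYC transcription carried peaks. Of 20 such genes, 15 (75%) had a peak at an end in both CM libraries and 11 (55%) in both DMEM libraries, against 39.1% and 15.9% of all protein-coding genes. NME2 and CNBP, whose proteins bind a nuclease-sensitive element of the MYC promoter, stood at percentiles 99.8 and 99.9 and at 99.6 and 99.7 in CM. In DMEM, NME2 stood at 98.6 and 99.4 and CNBP at 96.3 and 95.7. CTCF, an insulator protein gene, stood at 65.0 and 89.1 in CM and at 39.5 and 73.8 in DMEM. None of the 20 was CM-only, against 2198 of all 20037 protein-coding genes.

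Of 13 genes of the wider MYC and MAX dimer network, 8 (61.5%) had an end peak in both CM libraries and 5 (38.5%) in both DMEM libraries. The all-gene shares were again 39.1% and 15.9%. The list holds MYC itself and, beyond direct partners of MAX, MLX, MLXIP and MLXIPL. MYC, MLX and MLXIPL are among the 8. MAX stood at 97.9 and 95.7 in CM and at 83.8 and 94.2 in DMEM. Of the MYC paralogues, MYCN had no peak in any library, and MYCL had one in CM library 2 alone, at percentile 27.4. Of 8 ductal and epithelial marker genes, 4 (50%) had an end peak in both CM libraries and 1 in both DMEM libraries, against 39.1% and 15.9% of all, and KRT7, EPCAM and CDH1 had none in any library. Meanwhile 0 of 8 fibroblast and 0 of 4 blood marker genes had one in both libraries of either condition. ACTA2 alone of the fibroblast genes had a peak, in CM library 2. Peaks are not expression, so these counts check neither the labelled cell type nor the makeup of the cultures.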

How the data were processed

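The submitters' processing notes name MACS2 2.1.1.20160309, Picard 2.9.0, SAMtools 1.3.1, Bowtie2 2.3.4 and Trim Galore 0.4.3, and the build GRCh38. Which input was the control of which list, and any setting or filter, is not given in the sources used here. Deposited by the authors was 1 peak list per immunoprecipitated library, with a position and a score per peak, and common lists whose score is the mean over both libraries of a condition. In the window the authors' deposited common lists hold 28 CM, 2 DMEM and 2 all-library intervals. The files hold no reads, so depth is unknown.

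Peaks were ranked within each list (ties at mid-rank) and merged across libraries with Python 3.11.15, numpy 2.4.6 and pandas 2.3.3. A gene was called at an end when a peak lay within 1000 bp of an outermost annotated end. The annotation table gives no exons and no strand. The code was tested on simulated lists. Peak numbers were compared by an exact permutation test over 6 relabellings. Named genes were MYC, PVT1, window genes with a peak, the 5 genes most like MYC, and members of 2 lists, regulators and the dimer network. Members and lists were chosen with earlier results of these data known. Alternatives were score minimums of 20 and 50, lists of equal length, merging rules, gene-end distances of 500 and 2500 bp, a window of 1 Mb to either side of MYC, the common lists, a replicate block and leaving out each library. No sequence of this locus is shown.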

Additional observations from a re-analysis of the deposited data

How the results depend on the processing

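CM had more peaks than DMEM in the window under every alternative run, with log2 folds from 1.11 (lists of equal length) to 4.51 (without DMEM library 2), against 3.35. None could pass a threshold of 0.05, since the smallest possible p is 0.333. The PVT1 start kept a peak in all libraries under each score minimum, list length, gene-end distance and left-out library.

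With a score of at least 50, the window had 10 CM-only intervals in place of 19, MYC had an end peak in 0% of the DMEM libraries, and 14 intervals in both CM libraries lay within 1 Mb of MYC, in place of 22. In lists of equal length there were 2 CM-only intervals, 1 of them along PVT1 in place of 5, MYC had an end peak in 0% of the CM and 0% of the DMEM libraries, and 4 intervals lay within 1 Mb. The CM-only interval along PVT1 in lists of equal length was not among those 5, since its DMEM peak was cut. These settings hold fewer peaks by construction. Within 1 Mb to either side of MYC, 1 interval was shared by all libraries in place of 2, since ASAP1 lies outside.

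Leaving out a library gave 19 to 43 CM-only intervals, 5 to 11 of them along PVT1, 2 to 9 shared and 0 to 1 DMEM-only intervals. With 1 library of a condition left, that library alone decided its calls, so counts here can rise by construction. MYC had an end peak in 0% of DMEM libraries without DMEM library 2 and in 100% without DMEM library 1. The count within 1 Mb of MYC, a measure chosen after seeing the data, was 32 to 45 in CM and 1 to 7 in DMEM. The log2 fold of the share of a list in the window, added likewise, was 1.31 to 2.92, against 2.12.

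The libraries share replicate numbers in their titles. With a replicate block the log2 fold was again 3.35, with an exact sign-flip permutation p of 0.5. Over 3343 intervals present in all libraries, the percentile deviations of same-numbered libraries correlated at 0.05. The samples were treated as unpaired, though this correlation of ranks cannot tell whether same-numbered libraries were handled together.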
